A study of Mus musculus with 39 samples.

Results

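MiR-124, miR-124*, miR-9, miR-9* and miR-219 (mmu-miR-124, mmu-miR-124*, mmu-miR-9, mmu-miR-9* and mmu-miR-219 on the array) are miRNAs of the neural lineage. These 5 of the 650 miRNAs on the array were chosen by name, with their behaviour in control medium and under Activin A already known. Values of control cells over time, and of Activin A or Activin A plus Wnt3a against control, are therefore given as a description without a test. Mouse embryonic stem cells (ESCs) of the TCL-1 line, derived from 129/SvJae mice, had been separated from their mouse embryonic fibroblast feeders and plated on collagen. They were then cultured in serum-free RPMI medium with B27 and, as the methods name it, sodium butyrate. The paper's protocol for miRNA over-expression spells this sodium salt "byruate", so which salt was used is uncertain. Control cells received this medium alone. Treated cells received Activin A (100 ng/ml), Wnt3a (50 ng/ml) or both at these doses, here called the co-treatment. Cells were collected at days 1, 3 and 5. Together with undifferentiated ESCs there were 13 groups of 3 arrays, 39 in all. All groups came from 1 cell line, and no source used here says that the 3 samples of a group were separate cultures. The p-values below therefore measure the spread between samples, which may be technical.

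MiRNAs are short RNAs that pair through their seed, bases 2 to 8, with target mRNAs and lower their output. MiR-124 is the classical neuronal miRNA and represses non-neuronal transcripts. MiR-9 is expressed in neural progenitors and neurons and acts on regulators of neural progenitor growth, and miR-9* is the other arm of its hairpin. MiR-219 is known from the brain, where it promotes the maturation of oligodendrocytes. ESCs in serum-free medium without signals of the Activin or BMP type tend to take a neural course, whereas Activin A, through the Nodal receptors, drives them toward mesendoderm and definitive endoderm (DE). Wnt3a acts through beta-catenin and is used with Activin A to increase DE formation.

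The mature sequences below were found in RefSeq (GRCm38.p6) for 3 of the 5 miRNAs and are shown 5′ to 3′ with the seed in capitals, since each seed defines which targets the miRNA can pair with. The array's names are older than those of RefSeq, which lists miR-9 as miR-9-5p, miR-9* as miR-9-3p and miR-219 as miR-219a-5p.
miR-9: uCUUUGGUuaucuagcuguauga
miR-9*: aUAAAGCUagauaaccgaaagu
miR-219: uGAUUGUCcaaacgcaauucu
The 3 seeds differed from each other, and none of them was shared with another mature mouse miRNA of that table. MiR-9 and miR-9* are cut from the hairpins of Mir9-1 (chr3:88215598-88215686), which overlaps the long non-coding RNA gene Gm3764, of Mir9-2 (chr13:83738814-83738885), within C130071C03Rik, and of Mir9-3 (chr7:79505264-79505353), within its host gene Mir9-3hg. The mature sequence is the same from each of these 3 genes, so the array cannot tell them apart. MiR-219 comes from Mir219a-1 (chr17:34024983-34025092) and Mir219a-2 (chr2:29845631-29845727), of which the latter overlaps the protein-coding gene Cercam. MiR-124 is encoded by Mir124a-1 (chr14:64590657-64590741), within Mir124a-1hg, by Mir124a-2 (chr3:17795662-17795770), within Mir124-2hg, and by Mir124a-3 (chr2:180894040-180894107).

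Values are the array's total signal for each miRNA, in scanner units, before normalization unless stated otherwise. A miRNA that the scanner software did not detect has no level, only the bound set by the weakest miRNA detected on the same array. Between 183 and 375 miRNAs were detected per array. ESC and day 1 arrays detected 183 to 249 and arrays of days 3 and 5 detected 254 to 375, so low miRNAs had less chance of detection early. The arrays lay on 5 slides scanned in 2 sessions, and none of their spots was saturated. All day 5 arrays and the co-treated arrays of day 3 were scanned in 1 session and all other arrays in the other. No slide held arrays of the same treatment from different days, so that within a treatment day and slide cannot be told apart. The 3 arrays of Wnt3a at day 5 stood apart from each other, replicate 1 the most: its root mean square log2 distance from its partners was 1.14 for 143 miRNAs that every array detected, against 0.765 and 0.621 for its replicates 2 and 3 and 0.0769 to 0.348 for the 36 arrays of the other groups, so all 3 arrays of this group lay outside that range. The 6 fixed markers of pluripotent cells, of the miR-290 cluster, were detected in every group. The muscle markers miR-1 and miR-206 and the liver and gut markers miR-122, miR-192, miR-194 and miR-215 were not detected on any array. The other muscle markers, miR-133a and miR-133b, were detected at day 5 alone, on 2 and 0 of 3 control arrays, on 3 and 3 with Wnt3a, on 2 and 1 with Activin A and on none with the co-treatment. The summed signal of the muscle markers there was 0 to 8.13 in control, 13.2 to 32.0 with Wnt3a and 0 to 15.3 with Activin A, and its part in the results was not tested. In bulk samples such as these, fewer cells of a type and less of the miRNA per cell cannot be told apart.

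In ESCs and at day 1 the neural miRNAs were at or below the limit of detection, with miR-124 as the exception. MiR-124 was detected on 1 of 3 ESC arrays, at 12.6. At day 1 it was detected on all 12 arrays, with 14.8, 18.5 and 16.7 in control, 28.9, 35.5 and 30.3 with Wnt3a, 14.4, 11.5 and 21.5 with Activin A, and 20.7, 22.5 and 28.5 with Activin A plus Wnt3a. These signals came from 1 of its 2 probes. The median of the other probe was 0.25 in ESCs and, at day 1, 0.22 in control, 2.73 with Wnt3a, 0.50 with Activin A and 1.72 with the co-treatment. The early detection of miR-124 therefore rests on 1 probe. The Wnt3a arrays lay above the control arrays in raw signal, but after quantile normalization their log2 values, 5.72 ± 0.10 (SD, n = 3) against 5.52 ± 0.23, overlapped. The 2 groups lay on separate slides. MiR-9 was not detected in ESCs or control at day 1 and was detected on 1 of 3 arrays of each treated group, at 9.78 with Wnt3a, 13.9 with Activin A and 9.72 with the co-treatment. MiR-124*, miR-9* and miR-219 were not detected on any of these arrays.

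In control medium the signals of all 5 miRNAs were higher at day 5 than at day 3, with no overlap between the days. These days lay on separate slides and scan sessions, so that day, slide and session cannot be told apart. MiR-124 had signals of 78.9, 70.0 and 59.2 at day 3 and of 282, 235 and 268 at day 5. Its normalized log2 level was 6.02 ± 0.17 at day 3 and 7.80 ± 0.17 at day 5 (SD, n = 3), a 3.43-fold difference. The other arm of its hairpin, miR-124*, was first detected at day 3, with 10.9, 12.8 and 19.7, and reached 42.7, 42.7 and 44.0 at day 5.

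MiR-9 in control medium had signals of 37.7, 42.5 and 40.3 at day 3 and of 273, 268 and 280 at day 5. The normalized level was 6.14-fold higher at day 5, the widest step among the members detected on all arrays of both days. MiR-9* was detected on 2 of 3 control arrays at day 3, at 11.98 and 10.68, and had signals of 71.8, 71.1 and 75.5 at day 5. MiR-219 had signals of 134, 162 and 71.9 at day 3 and of 548, 318 and 423 at day 5. Against day 1, where no control array detected it, its normalized level was at least 4.62-fold higher at day 3 and at least 15.2-fold higher at day 5. For miR-9 the corresponding bounds were 1.66-fold at day 3 and 10.2-fold at day 5. The bounds for miR-124* and miR-9* at day 5 were only 1.28-fold and 2.31-fold, because day 1 arrays detected few dim miRNAs.

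**Figure D1:**
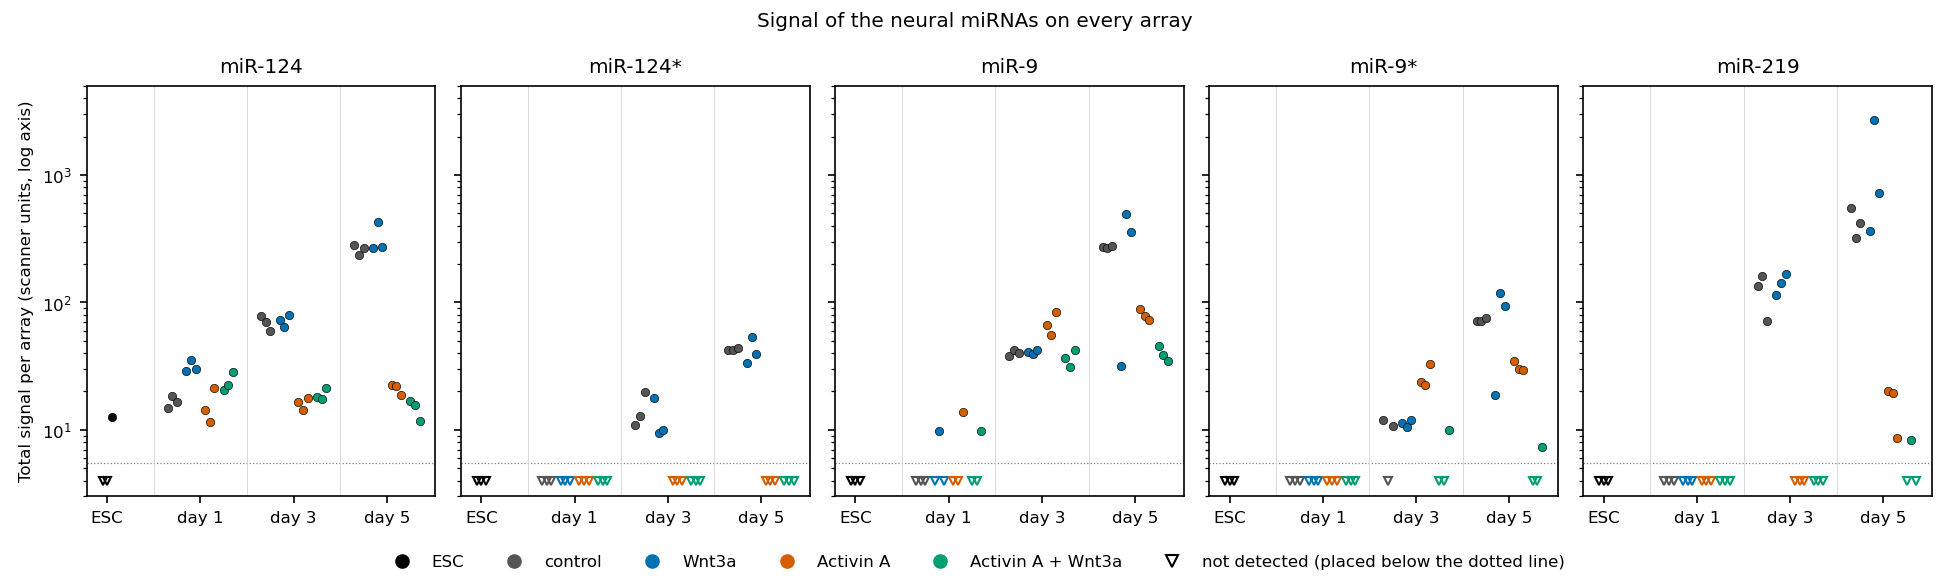
Total signal of the 5 neural miRNAs on each of the 39 arrays (scanner units, log axis), with 1 point per array, by day and treatment; open triangles below the dotted line are arrays without detection and carry no level. Control and Wnt3a arrays climb from day 3 to day 5 for all 5 miRNAs apart from replicate 1 of Wnt3a for miR-9 (31.6), whereas arrays with Activin A stay at or below 88.2 for every one of them.

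With Activin A, miR-124, miR-124* and miR-219 had signals of at most 22.5, or no detection, on the arrays of days 3 and 5. MiR-124 had 16.5, 14.3 and 17.7 at day 3 and 22.5, 21.97 and 18.9 at day 5. On the normalized scale its log2 mean was 5.37 at day 1, 3.93 at day 3 and 3.19 at day 5. The raw signals did not fall: at day 1 they were 14.4, 11.5 and 21.5, so the decline over time depended on the normalization. The 6 Activin A arrays of days 3 and 5 lay below every control array of the same day. The normalized level was 4.25-fold lower than in control at day 3 and 24.4-fold lower at day 5. Before normalization the gap at day 5 was narrower: probe by probe, the control median was 9.66 and 10.1 times that with Activin A. MiR-124* was not detected on any array with Activin A, which puts it at least 2.86-fold below control at day 3 and at least 14.9-fold below at day 5. MiR-219 was not detected at day 3, at least 22.7-fold below control. At day 5 it was detected on all 3 Activin A arrays, at 20.1, 19.3 and 8.56, which was 60.9-fold below control after normalization. Here too the gap was narrower before normalization, with control medians 20.7 and 23.2 times those with Activin A, probe by probe.

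MiR-9 and miR-9* followed another course under Activin A, by the labels of the scanner output. In the authors' log2 values the labels of Activin A and the co-treatment are exchanged, so that by them these arrays were co-treated. Which labelling is right was not tested. MiR-9 had signals of 66.2, 55.2 and 83.8 with Activin A at day 3, all above the 3 control arrays of that day. The normalized log2 level was 5.86 ± 0.06 with Activin A and 5.27 ± 0.10 in control (SD, n = 3), a 1.51-fold higher value with no overlap. MiR-9* was also higher at day 3, with 23.9, 22.6 and 32.7 against at most 11.98 in control. Probe by probe the gap was narrower: the median with Activin A was 1.29 and 1.34 times that of control. At day 5 the direction was the opposite for both arms. MiR-9 had signals of 88.2, 78.2 and 72.7 with Activin A, 4.68-fold below control after normalization. MiR-9* had 34.7, 29.9 and 29.4, 3.22-fold below control after normalization. Before normalization the control median was, probe by probe, 3.52 and 3.49 times that with Activin A for miR-9. For miR-9* it was 2.44 and 2.27 times. Neither arm increased on the normalized scale between day 3 and day 5 under Activin A: the difference was -0.20 log2 for miR-9 and -0.46 for miR-9*. Within the slide shared by control and Activin A arrays, the differences for miR-9 were 0.54 at day 3 (3 Activin A and 2 control arrays) and -2.19 at day 5 (2 and 3 arrays).

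With the co-treatment all 5 miRNAs lay below control at day 5. MiR-124 had signals of 18.2, 17.6 and 21.4 at day 3 and of 17.0, 15.6 and 11.8 at day 5, below every control array of the same day. MiR-124* was not detected on any co-treated array. MiR-219 was not detected at day 3, at least 31.0-fold below control, and on 1 of 3 arrays at day 5, at 8.30. MiR-9 had signals of 36.9, 31.2 and 42.4 at day 3, which overlapped control and were 1.31-fold lower without overlap after normalization, and of 45.8, 39.01 and 34.4 at day 5, 9.36-fold below control after normalization. MiR-9* was detected on 1 of 3 arrays at day 3, at 9.999, and on 1 of 3 at day 5, at 7.35. The 6 pluripotency markers moved the other way: their summed signal at day 5 was 7003 to 7301 in control, 10095 to 19925 with Wnt3a, 27636 to 31297 with Activin A and 25600 to 31020 with the co-treatment. The DE-associated marker miR-375 was not detected in control at day 5, and it was detected with signals of 15.2 to 18.0 with Wnt3a, 72.5 to 82.3 with Activin A and 102 to 113 with the co-treatment. At day 3 its signals were 0 to 8.80 in control, 16.1 to 28.9 with Wnt3a, 8.64 to 10.97 with Activin A and 22.8 to 31.9 with the co-treatment. The part of these shifts in the neural miRNA values was not tested.

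The effect of Wnt3a without Activin A was not used to choose the miRNAs and was tested with limma on quantile-normalized log2 values, with Benjamini-Hochberg adjustment over all miRNAs tested and a call at an adjusted p under 0.05 and a more than 2-fold difference. Across the 13 comparisons tested there were 47 member tests in which at least 1 array of the pair detected the miRNA. None of the members was called for Wnt3a against control at day 1, day 3 or day 5, where 4.17%, 3.07% and 3.80% of the 240, 326 and 368 miRNAs tested were called. Under the 16 alternative settings the count of members was 0 as well. At an unadjusted p under 0.05 there were 2 members, miR-9 and miR-124* at day 3, among 146 of the 326 miRNAs tested. At day 1 miR-124 alone of the 5 was detected often enough to be tested.

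At day 3 the signals with Wnt3a were close to those of control. MiR-124 had 72.3, 64.4 and 79.3, and its log2 difference of -0.24 (95% interval -0.50 to 0.02, adjusted p = 0.140 by limma) did not pass. MiR-219 had 115, 141 and 166 and differed by 0.11 (interval -0.34 to 0.56, adjusted p = 0.724). MiR-124* had 17.8, 9.46 and 9.98, and miR-9* had 11.4, 10.6 and 11.996, both with values that overlapped those of control. MiR-9 had 40.7, 39.7 and 42.7 and passed the p threshold with a small difference of -0.27 (SE 0.07, adjusted p = 0.0113), short of 2-fold.

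At day 5 miR-124 had signals of 267, 425 and 273 with Wnt3a, and its difference from control was 0.05 (95% interval -0.28 to 0.37, adjusted p = 0.948 by limma), an interval that stays within 2-fold. MiR-124* had 33.5, 53.4 and 39.5, with a difference of -0.38 (interval -0.77 to 0.00, adjusted p = 0.241). MiR-219 had 363, 2699 and 716. Replicate 2 carried the highest signal of miR-219 on any array, and the difference from control was 0.89 (interval -0.27 to 2.04, adjusted p = 0.337). MiR-9 had 31.6, 495 and 356, and miR-9* had 18.9, 118 and 93.5. In both arms replicate 1 was low and the other 2 samples were at or above control in raw signal. With all arrays the difference of miR-9 was -0.95 (interval -2.45 to 0.56, adjusted p = 0.408). Without replicate 1 it was 0.04 (SE 0.07, adjusted p = 0.684), so 1 array set its size. Replicate 1 did not stand low for miR-124 and miR-124*, where its normalized values were the highest of the 3. At day 5 no slide held arrays of both groups, so treatment and slide can be separated there only through the Activin A arrays, which lay on both slides. At day 3 the Wnt3a arrays shared a slide with 2 control arrays, and the difference of miR-124 within it was -0.15.

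Within the Wnt3a series, miR-124 showed no difference between day 1 and day 3 that passed the test and then rose. Each day of this series lay on its own slide and day 5 was scanned in the later session, so that within the series these cannot be told apart from day. Its log2 difference was 0.06 (95% interval -1.04 to 1.15, adjusted p = 1 by limma) from day 1 to day 3 and 2.06 (SE 0.53, adjusted p = 0.00213) from day 3 to day 5. The first of these values depended on the normalization: without it the difference was 1.19 (adjusted p = 0.00753). Higher calls went to 4 of the 5 members from day 1 to day 3, all but miR-124, and to 4 from day 3 to day 5, all but miR-9, where 44.0% and 22% of 373 miRNAs were called in either direction and 29.5% and 9.65% were called higher. MiR-124*, miR-9* and miR-219 had no detection at day 1 and entered the first of these tests only through groups in which they were detected, so the count of 4 is a description and nothing is read from it. MiR-219, not detected at day 1, was at least 6.79-fold higher at day 3, and its test there rests on floor values. It rose by a further 2.49 log2 by day 5 (SE 0.31, adjusted p = 2.03e-07 by limma). MiR-124* rose by 1.34 (SE 0.17, adjusted p = 2.11e-07) and miR-9* by 1.76 (SE 0.48, adjusted p = 0.00305) from day 3 to day 5. Their calls at day 3 are set by the floor and have no fold, since the day 3 signals lay under what day 1 arrays could detect. MiR-9, detected on 1 of 3 arrays at day 1, had a called difference of 2.97 to day 3 that depends on the floor. Its difference of 1.94 from day 3 to day 5 did not pass (adjusted p = 0.0692). It passed under 7 of 15 alternative settings, and without replicate 1 of day 5 it was 2.93 (adjusted p = 0.00678). It also passed, at an unchanged size, without any of the 3 day 1 arrays that detected miR-9, with adjusted p values of 0.0256 to 0.0445 (replicate 2 of Wnt3a, replicate 3 of Activin A and replicate 3 of the co-treatment).

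With Activin A added to Wnt3a, miR-124 was called lower at day 3 and miR-124 and miR-9 at day 5, with detection on all arrays of both groups. The other calls involved members detected on at most 1 of 3 co-treated arrays, which passed the filter through the groups where they are high, so the counts of members below are a description. The co-treated arrays had been compared with control when the miRNAs were chosen, so this contrast is not independent of that choice. At day 1 miR-124, the member that could be tested, was not called, with a difference of -0.23 (95% interval -0.54 to 0.08, adjusted p = 0.575 by limma, also not at an unadjusted p under 0.05), and 0.417% of 240 miRNAs were called. At day 3 4 of the 5 members were called lower with the co-treatment than with Wnt3a alone, against 18.1% of 326 miRNAs called in either direction and 8.28% called lower. MiR-124 was lower by 4.15-fold (log2 difference -2.05, SE 0.12, adjusted p = 3.32e-07). MiR-219 was at least 33.4-fold lower and miR-124* at least 2.61-fold lower, each without detection in the co-treated cells, so that their tests rest on floor values. MiR-9* was called lower with 1 of 3 co-treated arrays detected (adjusted p = 0.0462), a call that was lost when any of 8 single arrays of the day was left out (each array of Wnt3a and of Activin A, and co-treated replicates 1 and 2), with adjusted p values of 0.0639 to 0.135. The call was also lost under 10 of 15 alternative settings and changed direction under 1. MiR-9 was the exception: its values of the 2 groups overlapped and the difference was -0.12 (interval -0.27 to 0.02, adjusted p = 0.145). At day 3 the co-treated arrays lay alone on their slide, so that treatment and slide cannot be told apart.

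At day 5 all 6 arrays of this comparison lay on 1 slide, and all 5 members were called lower with the co-treatment, against 25.3% of 368 miRNAs called in either direction and 11.4% called lower. MiR-124 was 26.8-fold lower (log2 difference -4.75, SE 0.14, adjusted p = 1.20e-08 by limma). MiR-124* was at least 9.28-fold lower, without detection in the co-treated cells, so that its test rests on floor values. MiR-219 had a difference of -7.96 (SE 0.51, adjusted p = 1.74e-06), and miR-9* of -3.56 (SE 0.54, adjusted p = 0.000661), with sizes that depend on the floor because 1 of 3 co-treated arrays detected them. MiR-9 was 4.86-fold lower (difference -2.28, SE 0.67, adjusted p = 0.0218). Its spread came from replicate 1 of Wnt3a, without which the difference was -3.27 (SE 0.07, adjusted p = 3.24e-09). Leaving out any other of the 6 arrays ended this call, with adjusted p values of 0.0538 to 0.0642.

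**Figure D2:**
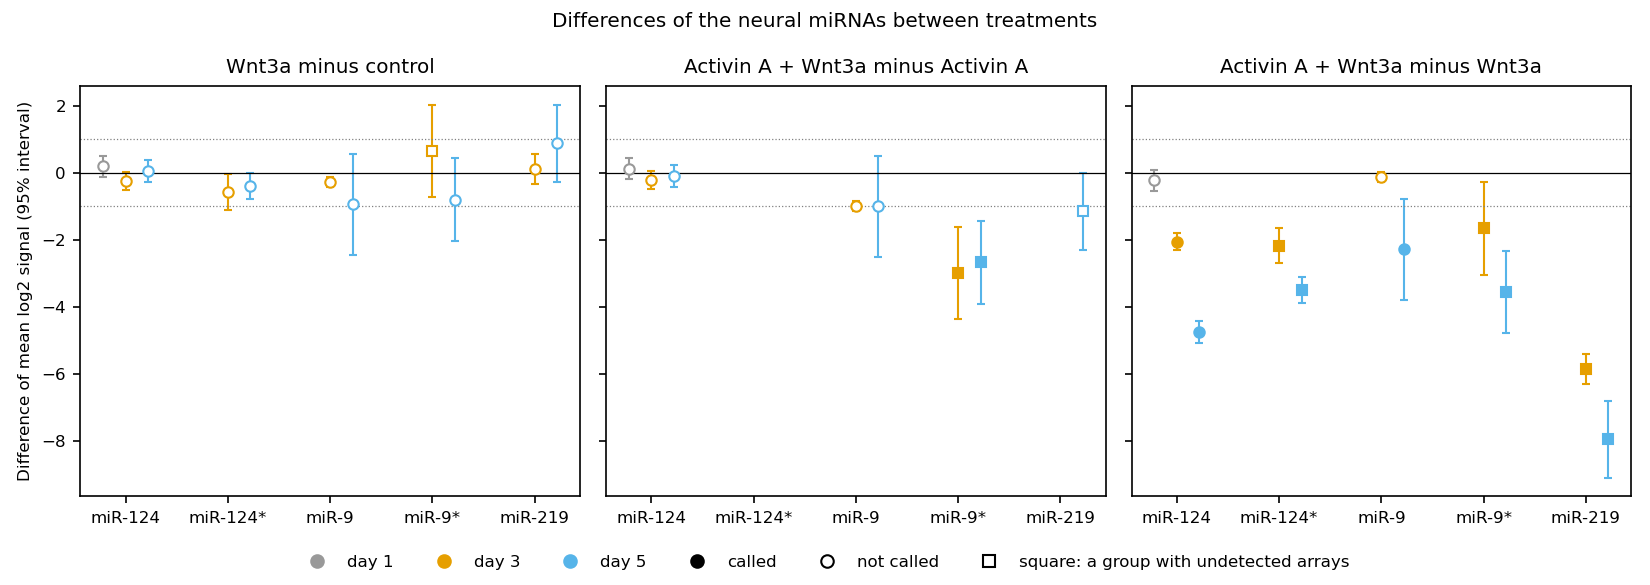
Differences in mean log2 signal between treatments of the same day for the 5 neural miRNAs (points) with 95% intervals (bars); filled symbols are called at an adjusted p under 0.05 and a more than 2-fold difference, the dotted lines mark 2-fold, and pairs without detection in either group are left out. Wnt3a against control has no filled symbol, Activin A plus Wnt3a against Activin A has 2, both miR-9*, and Activin A plus Wnt3a against Wnt3a has 9, of which miR-219 at day 5 lies lowest at -7.96.

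Adding Wnt3a to Activin A gave a call for miR-9* and for no other member. MiR-9 had signals of 66.2, 55.2 and 83.8 with Activin A at day 3 and of 36.9, 31.2 and 42.4 with the co-treatment. The groups did not overlap, and the log2 difference was -0.99 (SE 0.07, adjusted p = 1.18e-05 by limma), a 1.98-fold value just short of the 2-fold rule. It passed without replicate 3 of the co-treatment (-1.04) or replicate 2 of Activin A (-1.02). The co-treated arrays of this day lay alone on their slide, so that treatment and slide cannot be told apart here. MiR-9* was detected on 3 of 3 arrays with Activin A and on 1 of 3 with the co-treatment, with a called difference of -2.997 (SE 0.61, adjusted p = 0.00704) that depends on the floor. On its 2 probes the median with Activin A was 1.93 and 1.56 times that of the co-treatment, both short of 2-fold. In the authors' log2 table as its columns are named, the day 3 differences had the opposite direction, 1.28 for miR-9 (adjusted p = 1.21e-05 by limma) and 3.22 for miR-9* (adjusted p = 0.00358), since the columns of these 2 treatments rank like each other's arrays. Which of the 2 labellings is right was not tested. With the scanner files miR-9* was the 1 member called at day 3, where 3.99% of 326 miRNAs were called and 2.15% were called lower, and again at day 5, where 2.72% of 368 were called and 0.815% were called lower. At day 1 miR-124, the member tested, was not called (adjusted p = 0.554 by limma, also not at an unadjusted p under 0.05), and 0.833% of 240 miRNAs were.

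At day 5 miR-9 was again lower with the co-treatment than with Activin A on every array, with a difference of -0.999 (SE 0.67, adjusted p = 0.745 by limma). That error is shared with the other groups of the day. Without replicate 1 of Wnt3a, which is not part of this comparison, the same difference had an SE of 0.06 and an adjusted p of 1.33e-05. MiR-9* differed by -2.67 (SE 0.54, adjusted p = 0.0208). This call was lost when any of 5 single arrays was left out (each array of Activin A, and co-treated replicates 1 and 2), with adjusted p values of 0.0638 to 0.0934, although every Activin A array lay above every co-treated array. MiR-219 was detected on 3 of 3 Activin A arrays and on 1 of 3 co-treated arrays, with overlapping values and a difference of -1.15 (interval -2.30 to 0.00, adjusted p = 0.373). MiR-124 differed by -0.21 at day 3 (interval -0.47 to 0.06, adjusted p = 0.232) and by -0.09 at day 5 (interval -0.42 to 0.23, adjusted p = 1), intervals that stay within 2-fold. MiR-124* was detected in neither group. On the slide that held the co-treated arrays and 1 Activin A array at day 5, the differences were -0.92 for miR-9 and -2.68 for miR-9*.

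Under the co-treatment miR-9 and miR-124 moved in opposite directions over time on the normalized scale. The value of miR-9 depends on the floor and that of miR-124 on the normalization. The co-treated days lay on separate slides and day 1 was scanned in another session than days 3 and 5. Within the co-treatment these cannot be told apart from day. From day 1 to day 3 miR-9 was called higher, with a difference of 2.82 (SE 0.86, adjusted p = 0.00578 by limma) that rests on 1 of 3 day 1 arrays with detection, while miR-124 was called lower by -1.77 log2 (SE 0.53, adjusted p = 0.00534). At this step 41.0% of 373 miRNAs were called in either direction, 27.3% higher and 13.7% lower. The call of miR-124 depended on normalization: its raw signals of 20.7, 22.5 and 28.5 at day 1 and of 18.2, 17.6 and 21.4 at day 3 overlapped, and without normalization the difference was -0.32 (adjusted p = 0.527). Its 2 probes went opposite ways, with medians of 22.5 at day 1 and 18.2 at day 3 on 1 and of 1.72 and 3.74 on the other. From day 3 to day 5 no member was called or had an unadjusted p under 0.05, with 4.83% of miRNAs called. MiR-9 differed by -0.21 (interval -1.98 to 1.55, adjusted p = 1), and miR-124 by -0.63 (interval -1.72 to 0.47, adjusted p = 0.648).

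Over all groups with detection on 3 of 3 arrays, the order of levels differed between the hairpins. For miR-124 the Wnt3a and control groups of day 5 led, with log2 means of 7.84 and 7.80 and overlapping arrays, and the day 5 groups with Activin A and with the co-treatment came last, with 3.19 and 3.09, also overlapping. The 4 day 1 groups lay between these ends, each overlapping the next. Their place depended on the normalization: in raw signal, control at day 1 (14.8 to 18.5) lay below Activin A at day 5 (18.9 to 22.5). For miR-9 control at day 5 led with 7.89, followed by Wnt3a at day 5 with 6.94 ± 1.71 (SD, n = 3), whose arrays overlapped both neighbours. Activin A at day 3 and day 5 came next, with 5.86 and 5.66, above control at day 3 with 5.27. This place is that of Activin A by the scanner labels and of the co-treatment by those of the authors' log2 values. For miR-219 Wnt3a and control at day 5 (9.35 and 8.46) overlapped, as did Wnt3a and control at day 3 (6.85 and 6.74), and Activin A at day 5 came last with 2.53 ± 0.54 (SD, n = 3).

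Each miRNA was measured by 2 probes of 10 spots, and the probes of a pair agreed in direction for the differences listed next. They did not agree for miR-9* in Wnt3a against the co-treatment at day 3, a called difference. There the ratios of median signal were 1.42 and 0.96. The probes of miR-124 did not agree for the co-treatment from day 1 to day 3, also a called difference. The median signal of miR-219 in Wnt3a at day 5 was 55.8 and 59.4 times that of the co-treatment on its 2 probes, and that of miR-124 was 22.4 and 14.5 times. For miR-9, Activin A at day 3 exceeded the co-treatment 1.96-fold on 1 probe and 1.51-fold on the other, and it exceeded control 1.79-fold and 1.66-fold. For miR-9*, Activin A exceeded the co-treatment by 1.93-fold and 1.56-fold at day 3 and by 2.23-fold and 2.72-fold at day 5, with no overlap of arrays on either probe.

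MiRNAs with the most similar pattern were sought among 372 others by the Pearson correlation of the 13 group means, which share the arrays and their normalization. MiR-124 was most like miR-100 (r = 0.92), miR-15a (0.88), miR-30a (0.81), miR-20a (0.81) and miR-99a (0.78). MiR-9 was most like miR-107 (0.96), miR-185 (0.96), miR-340-5p (0.96), miR-103 (0.96) and miR-17 (0.95), which stayed above their ESC level in all treatments at days 3 and 5. MiR-219 was most like miR-124* (0.98), miR-342-3p (0.97), miR-503 (0.95), miR-99a (0.93) and miR-130b (0.92). Many of the means were floor values: miR-219, miR-124*, miR-185, miR-340-5p, miR-503 and miR-99a all had them in ESCs and every day 1 group. Shared non-detection therefore enters these r values, and its part in them was not tested. Between members, the group means of miR-124 and miR-9 had an r of 0.37 and those of miR-9 and miR-9* one of 0.89.

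**Figure D3:**
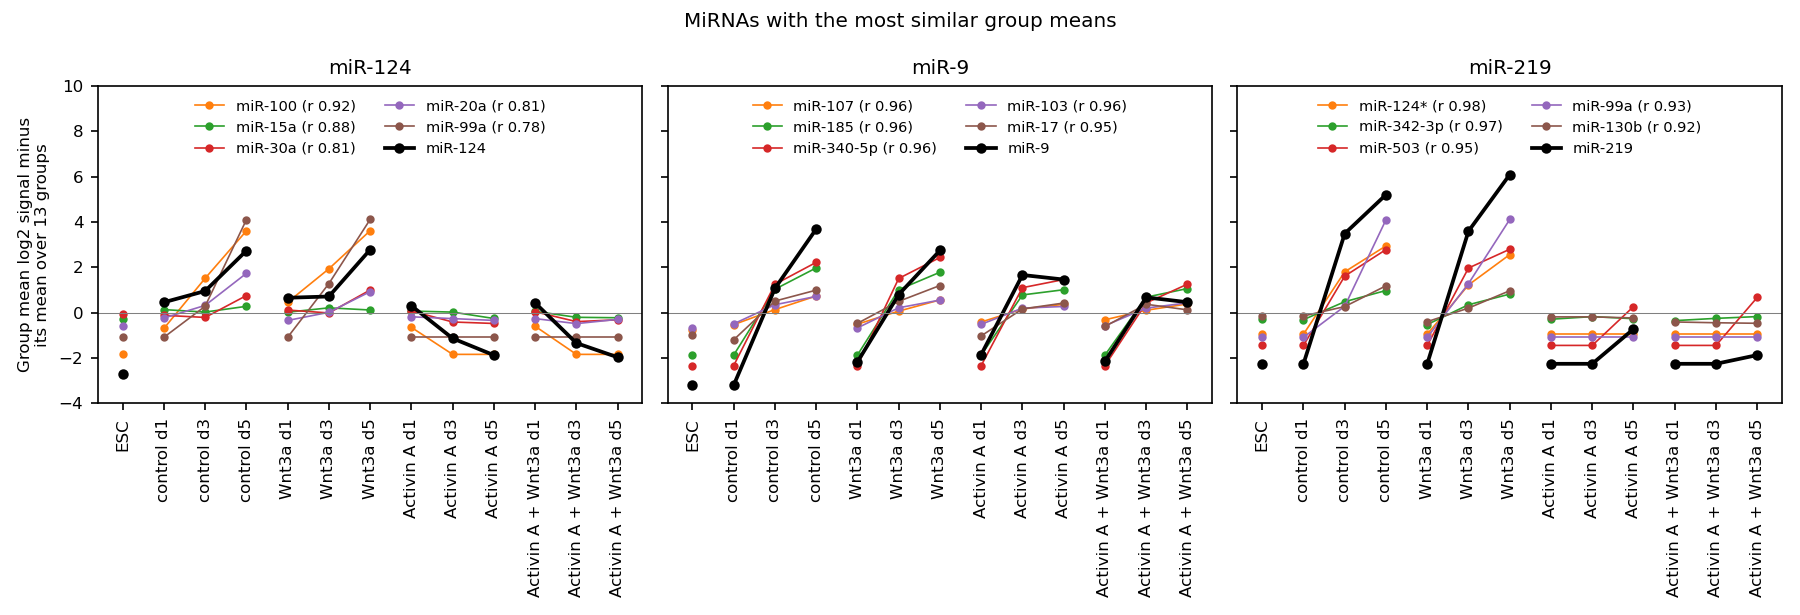
Group means of log2 signal, each centred on its mean over the 13 groups, for miR-124, miR-9 and miR-219 (black) and the 5 miRNAs most like each (colours, with Pearson r); the lines join days 1, 3 and 5 of a treatment. MiR-124 and miR-219 part between treatments with and without Activin A, while miR-9 climbs from day 1 to day 3 in all 4 treatments.

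A list of 13 other brain-enriched miRNAs was described beside the members. For Activin A against control, 1 of the 8 list members tested at day 3 was called, against 19.0% of 326 miRNAs, and 2 of 9 at day 5, against 25% of 368, in each case lower, where 6.44% and 11.4% of miRNAs were called lower. The median log2 difference of the list was -0.29 at day 3 and 0.00 at day 5, beside -0.04 and -0.03 over all miRNAs tested. The day 5 median is a floor value, since miR-7b and miR-338-3p lay at the floor in both groups, and nothing is read from it. MiR-125b-5p, a miRNA of the neural and many other lineages, had signals of 26.1 to 37.7 with Activin A and 121 to 123 in control at day 3. Its difference was -2.09 (SE 0.06, adjusted p = 6.62e-09 by limma) at day 3 and -2.55 (SE 0.14, adjusted p = 4.51e-07) at day 5. The summed signal of 5 fibroblast or feeder markers was 0 to 10.4 with Activin A and 15.9 to 27.7 in control at day 3, and 37.6 to 57.0 and 37.7 to 43.8 at day 5, and its part in the result was not tested. MiR-153, a brain miRNA, had signals of 45.6 to 56.6 in control at day 5 and was not detected with Activin A, at least 17.4-fold lower, so that its test rests on floor values. MiR-129-3p differed by -0.73 (adjusted p = 0.000596) at day 3 and by -0.81 (adjusted p = 0.00533) at day 5, short of 2-fold. MiR-7a, miR-128, miR-134 and miR-212 were detected on all arrays of both groups and not called on either day. MiR-7a was higher with Activin A, with log2 means of 6.80 against 6.44 in control at day 3 and 6.03 against 5.73 at day 5. MiR-128 was lower, with 4.77 against 4.94 and 4.26 against 4.55. MiR-7b was detected on 2 of 3 Activin A arrays and on no control array at day 5, below the floor, and was not called. MiR-338-3p, also tested at day 5, was detected in neither group. MiR-129-5p, miR-132, miR-137 and miR-138 were not tested for lack of detection.

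**Figure D4:**
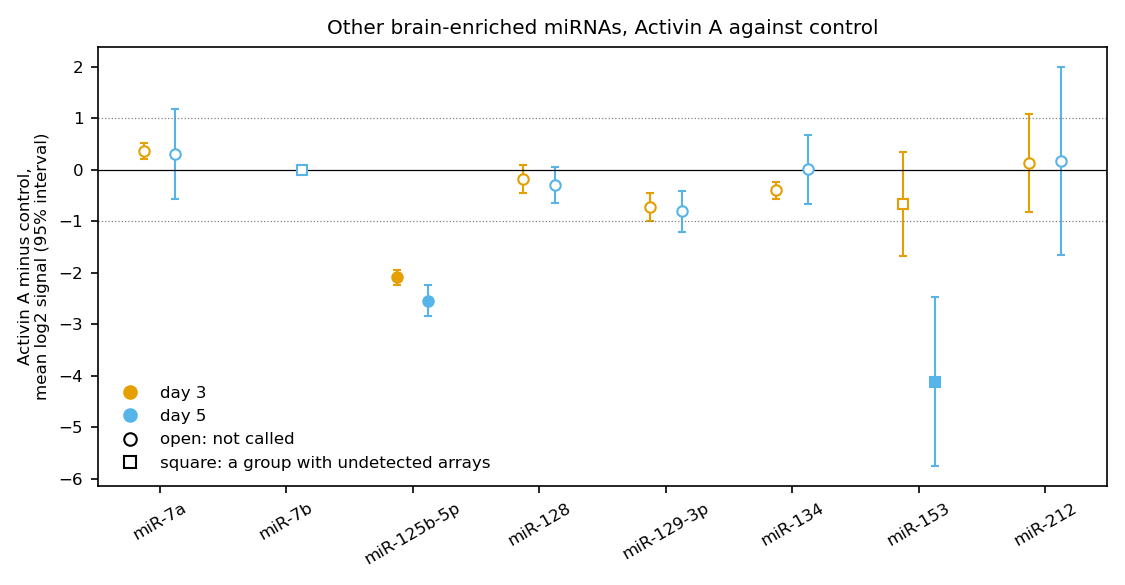
Activin A minus control in mean log2 signal with 95% intervals for the brain-enriched miRNAs tested at day 3 and day 5, with filled symbols for called miRNAs and dotted lines at 2-fold. MiR-125b-5p at both days and miR-153 at day 5 (-4.12) lie below the 2-fold line with filled symbols, and the others lie between the dotted lines.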

How the data were processed

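The authors hybridised RNA to 1-colour Agilent mouse miRNA arrays and deposited the scanner output, with background-corrected intensity per spot and a total gene signal and detection flag per miRNA. Per the file headers the software was Feature Extraction 10.7.3.1, whereas the labels give 9.5.3.1. The authors also deposited a table of log2 values. Its columns for Activin A and Activin A plus Wnt3a (18 of 39) ranked like each other's arrays, and which labelling is right was not tested. Scanner output was used, with this table only as an alternative. Groups came from the sample titles. Total signals were quantile-normalized over 39 arrays, raised to a floor of 2 and log2-transformed. MiRNAs detected on at least 2 of 3 arrays of a group entered limma 3.58.1 (R 4.3.3, statmod 1.5.0), fitted on the 12 arrays of a day, or on all 39 for comparisons over time. Tests were checked on simulated data. A bound sets the detected group's mean against the weakest signal detected on each array of the other group. Alternatives covered normalization, background, floor, filter, test, slide, replicate block, samples and single arrays left out.

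Members, lists and tests were chosen with earlier results of these data known. Named miRNAs were the members, list members called in a comparison given, marker miRNAs and the 5 most similar profiles. MiR-134, miR-128, miR-212, miR-7a, miR-7b, miR-129-3p, miR-338-3p and the untested list members were named after their values were seen. No depth of reads exists for arrays, and 3 arrays per group limit the precision.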

Additional observations from a re-analysis of the deposited data

Results flagged for a closer look

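The effect of Activin A against control ran one way on every array at day 3 and the other way on every array at day 5 for both arms of the miR-9 hairpin. For miR-9 the mean log2 effects were 0.59 at day 3 and -2.23 at day 5, a difference of 2.82. For miR-9* they were 1.99 and -1.69, a difference of 3.67. These Activin A arrays carry the label of the co-treatment in the authors' log2 values, and which labelling is right was not tested. For Wnt3a against control the effects on miR-9* were 0.65 at day 3 and -0.80 at day 5, a difference of 1.45, and those on miR-124 were 0.20 at day 1 and -0.24 at day 3, a difference of 0.44. Adding Wnt3a without and with Activin A moved miR-9* by 0.65 and -2.997 at day 3, a difference of 3.65, and miR-219 by 0.89 and -1.15 at day 5, a difference of 2.03. None of these differences between effects was tested, and those of miR-9* at day 3 and miR-219 at day 5 include arrays without detection, whose values are set by the floor.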

How the results depend on the processing

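Of 822 member values under alternatives other than single arrays left out, 763 kept direction and side of the threshold, 41 no longer passed, 13 newly passed and 5 reversed. The counts below are members called (of 5), or brain-enriched miRNAs for Activin A against control (of 13). Smaller moves of a count are not listed: for the co-treatment against Wnt3a at day 3 it ranged from 1 to 5 over the alternatives. For Activin A plus Wnt3a against Activin A the day 3 count of 1 became 2 with quantile normalization of log2 signals and with the authors' table, columns as named or matched to arrays, and 0 with normexp. Its day 5 count of 1 became 2 in 1 fit of all 39 arrays and 0 with a floor of 10, no detection filter, normexp, quantile normalization of log2 signals, the authors' table either way, and slide as a fixed term. Against Wnt3a the day 3 count of 4 became 2 with a floor of 10 or quantile normalization of log2 signals and 1 with normexp, where miR-9* lost its call under 10 of 15 alternatives, and the day 5 count of 5 became 3 with normexp or the authors' table as named. For Wnt3a from day 1 to day 3 the count of 4 became 2 with a floor of 10 or quantile normalization of log2 signals and 1 with normexp, and from day 3 to day 5 it became 2 with normexp, while miR-9 newly passed under 7 of 15 alternatives. For the co-treatment from day 1 to day 3 the count of 2 became 1 without normalization and 0 with normexp, and from day 3 to day 5 the count of 0 became 1 with the authors' table as named. The brain-enriched count of 1 at day 3 became 0 with normexp, 2 with quantile normalization of log2 signals, 3 with the authors' table as named and 2 with its columns matched, and that of 2 at day 5 became 1 with a floor of 10 or normexp. The reversals were all in the authors' table as named, whose columns for the 2 treatments with Activin A are exchanged relative to the scanner files (which of the 2 is right was not tested): for the co-treatment against Activin A miR-9 became 1.28 at day 3 and miR-9* 3.22 at day 3 and 2.64 at day 5, and against Wnt3a at day 3 miR-9 became 1.10 and miR-9* 1.62. Matching its columns to the arrays was chosen after seeing the data. The cause of the other changes was not tested.

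With single arrays left out, the count ranged from 1 to 2 at day 3 and from 0 to 1 at day 5 for the co-treatment against Activin A, from 3 to 4 and from 4 to 5 against Wnt3a, and from 4 to 5 for Wnt3a from day 3 to day 5. Each of the other counts stayed at its value. For miR-9 in the co-treatment against Wnt3a at day 5, leaving out any of 5 single arrays, all but replicate 1 of Wnt3a among the 6 compared, gave adjusted p values of 0.0538 to 0.0642. Slide as a fixed term could not be fitted for the co-treatment against Activin A or Wnt3a at day 3, for Wnt3a from day 3 to day 5 and for the co-treatment from day 1 to day 3.

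Deviations of samples with the same replicate number had r of -0.49 to 0.39 over 54 pairs, 21 of them over 0.1. All 3 pairs were over 0.1 for Activin A and Wnt3a each with control at day 1 and for the co-treatment with Activin A at day 3, and not for the other pairs of groups. With the replicate block, counts were 0, 0 and 0 for Wnt3a against control, 0, 1 and 1 for the co-treatment against Activin A, 0, 4 and 5 against Wnt3a, 4 and 4 for Wnt3a over time, 2 and 0 for the co-treatment over time, and 1 and 2 for the brain-enriched list, and none of the 53 member values changed its call.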

Other observations

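Outside Activin A against control, the brain-enriched list moved in a few members. For Activin A plus Wnt3a against Wnt3a, 2 of the 8 list members tested at day 3 and 2 of 9 at day 5 were called lower, miR-125b-5p and miR-153 on each day, where 8.28% and 11.4% of all miRNAs tested were called lower. MiR-125b-5p differed by -1.73 log2 at day 3 (SE 0.06, adjusted p = 1.40e-08 by limma) and by -1.73 at day 5 (SE 0.14, adjusted p = 9.08e-06). MiR-153, not detected in the co-treated cells, had signals of 9.20 to 10.4 with Wnt3a at day 3 and of 13.7 to 244 at day 5, and its tests rest on floor values. No list member was called for Wnt3a against control or for the co-treatment against Activin A on any day.

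The course of miR-125b-5p over time differed from that of the 5 neural miRNAs. Its signal was 386 to 413 in ESCs, 713 to 1412 over the day 1 groups and 120 to 123 in control at day 3, and it was called lower from day 1 to day 3 with Wnt3a (-3.95 log2, SE 0.09, adjusted p = 5.00e-25 by limma). The summed signal of the 5 fibroblast or feeder markers on the array moved with it, from 184 to 205 in ESCs and 380 to 695 over the day 1 groups to 15.9 to 27.7 in control at day 3. Of these markers miR-145 was not detected in ESCs or at day 1, and miR-199a-5p and miR-214 were detected on all arrays of ESCs and day 1 and on none of day 3. Their part in the signal of miR-125b-5p was not tested.

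MiR-7a was called lower over time, by -1.23 log2 from day 1 to day 3 (adjusted p = 3.36e-05 by limma) and by -1.39 from day 3 to day 5 (adjusted p = 1.30e-05) with Wnt3a, where its day 5 signals ranged from 25.3 to 156, and by -1.33 from day 1 to day 3 with the co-treatment (adjusted p = 1.20e-05).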
